A study of Populus ussuriensis with 12 samples.

Results

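In poplar root tips, 187 of 34699 genes were raised by polyethylene glycol (PEG) in wild-type plants and changed little with PEG in plants overexpressing PuC3H35. They were chosen on log2 of the group mean FPKM plus 1, where FPKM is a read number scaled to gene length and library depth. A gene had to reach a mean of at least 2 FPKM in a group and stand above 0 in wild type without PEG. It had to be higher under PEG by at least 1.2 in wild type, differ between media by under 0.5 in the overexpressor, and be less than 1 higher in the overexpressor than in wild type without PEG. Every group mean of the study entered these criteria, so the levels and differences of the 187 genes are given as a description, and no test result is read as support.

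Root tips 0.5 cm long were taken from Populus ussuriensis poplars raised in vitro from 3 cm stem segments of donors 4 weeks old. Plants 1 week old spent 7 days on agar medium with 6% PEG6000 or with none, and 3 libraries were sequenced for each of 4 groups: wild type (WT), WT under PEG (WT PEG), the overexpressor (OE) and OE under PEG (OE PEG). In the genotype labels the number after PuC3H differs in each of the 6 overexpressor libraries and runs from PuC3H35 to PuC3H40, and they were treated as 1 genotype. Neither the promoter of the transgene nor the number of independent lines is stated in the labels. Whether the replicates are separate plants is also not said, and the spread between libraries may be technical.

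High-molecular-weight PEG lowers the water potential of a medium without readily entering root cells, and it is used to impose a water deficit. Roots that sense such a deficit make the hormone abscisic acid, accumulate protective solutes and change the growth of the tip. PuC3H35 belongs to the CCCH zinc finger proteins, a family whose members bind RNA or DNA and several of which act in stress responses of plants. The table pairs its identifiers with no gene names, so no function is assigned to a member, no pathway or cell type list was applied, and the levels of PuC3H35 and of root tip markers were not looked up. In bulk tissue, more cells of a type and more RNA per cell cannot be told apart.

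Library totals recovered from the FPKM values were 27124958 to 37106342 reads. At the members' median length of 1609 bp, 1 FPKM stood for 43.6 to 59.7 reads. Most members were of modest abundance. The median level was 2.93 FPKM in WT and 10.4 in WT PEG, with 46 members under 5 FPKM and 22 over 50 FPKM in WT PEG. The median level was 4.38 FPKM in OE and 4.66 in OE PEG. Over the 22640 genes with a mean of at least 1 FPKM, which are called tested genes here, the median was 8.60 FPKM in WT and 8.98 in WT PEG. The median coefficient of variation between replicates was 11.4% for the members in WT and 5.93% in WT PEG, against 6.17% and 6.03% for tested genes. For the members it was 8.48% in OE and 7.41% in OE PEG, against 6.07% and 5.51% for tested genes. The members were not matched to tested genes by level, which was lower for the members in WT, OE and OE PEG.

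Library by library, the members fell into 3 levels. Set against the mean of the WT group on the log2(FPKM + 1) scale, the median member stood at 1.41, 1.40 and 1.40 in the 3 WT PEG libraries. It stood at 0.52 in each of the 3 OE libraries and at 0.63, 0.65 and 0.65 in the OE PEG libraries. The medians of the OE and OE PEG libraries thus lay between those of WT and WT PEG, with little between the media. The summed FPKM of the members was 0.335% to 0.343% of a library in WT and 0.966% to 0.987% in WT PEG. It was 0.417% to 0.438% in OE and 0.434% to 0.439% in OE PEG. The most abundant member held 16.6% to 32.9% of these sums. Without it the ranges were 0.229% to 0.230% in WT, 0.697% to 0.705% in WT PEG, 0.341% to 0.350% in OE and 0.348% to 0.351% in OE PEG.

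**Figure D1:**
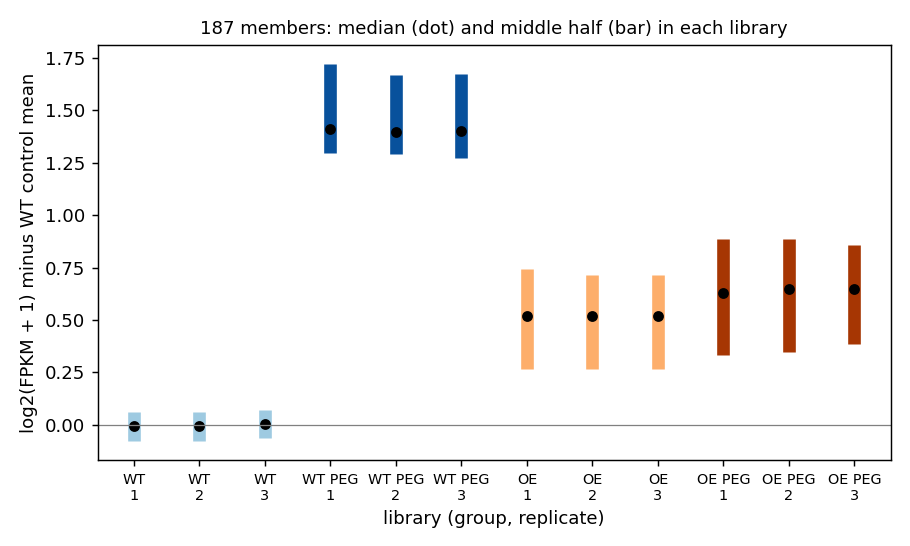
The difference of log2(FPKM + 1) from the WT mean is plotted for the 187 members in each of the 12 libraries, dots marking the median and bars the span from the lower to the upper quartile. The WT PEG medians lie at 1.40 to 1.41, the OE medians at 0.52 and the OE PEG medians at 0.63 to 0.65.

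The rise with PEG in WT was mostly near the limit that defined it. The median change of a member in WT was 1.40 on the log2(FPKM + 1) scale, with quartiles of 1.3 and 1.65, and 118 of the 187 lay between 1.2 and 1.5. Only 24 reached 2. As a ratio of mean FPKM the change had a median of 3.54, a lowest value of 2.37 and a value over 4 in 76 members. The 3 WT PEG libraries lay above the 3 WT libraries in 185 members, as they did in 31.5% of tested genes. In 164 of the 178 members that passed the filter on mean FPKM they lay above all 9 other libraries, which was so for 10.8% of tested genes. limma, at an adjusted p under 0.05 over all tested genes, called all 178 raised by PEG in WT, where 29.9% of tested genes were called raised and 34.7% lowered. The rule fixed that direction. The other 9 members did not pass the filter, with means of 2.01 to 3.25 FPKM in WT PEG and at most 0.352 in WT.

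Potri.004G069101 had the largest change in WT. Its FPKM was 0.307, 0.279 and 0.377 in WT, 25.2, 21.4 and 20.7 in WT PEG, 1.29, 1.78 and 0.799 in OE, and 0.536, 1.51 and 1.01 in OE PEG. The WT PEG libraries stood far above the rest, OE stood above WT without overlap, and OE and OE PEG overlapped. This 240 bp gene had only 2, 2 and 3 recovered reads in the WT libraries against 167, 166 and 157 in WT PEG, a ratio per depth of 68.9 with an exact 95% interval of 33.2 to 172. The same ratio for OE PEG over OE was 0.813, with an interval of 0.453 to 1.45. Such intervals cover counting error only.

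Potri.005G176100, second by size of change, rested on more reads. It stood at 0.993, 1.03 and 1.40 FPKM in WT and 14.0, 14.3 and 15.1 in WT PEG. In OE it stood at 2.75, 3.54 and 2.38 FPKM, and in OE PEG at 1.79, 2.15 and 1.82. OE was above WT, and OE PEG was below OE, each without overlap. The log2(FPKM + 1) change with PEG was 2.85 in WT and -0.41 in OE.

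Potri.016G015500 was by far the most abundant member. Its FPKM was 660, 652 and 699 in WT and 1595, 1673 and 1772 in WT PEG. It was 425, 542 and 550 in OE and 570, 576 and 592 in OE PEG. All 6 OE libraries, with and without PEG, lay below the lowest WT library, and the OE PEG libraries lay above the OE libraries. The change with PEG was 1.32 in WT and 0.20 in OE on the log2(FPKM + 1) scale.

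Potri.001G356900, the next most abundant, showed the commoner arrangement of the 4 groups. It stood at 147, 148 and 144 FPKM in WT and rose to 361, 365 and 358 in WT PEG. It stood at 220, 217 and 224 FPKM in OE and rose to 265, 268 and 258 in OE PEG. The 4 groups did not overlap, and both OE groups lay between the WT groups. The change was 1.3 in WT and 0.26 in OE.

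**Figure D2:**
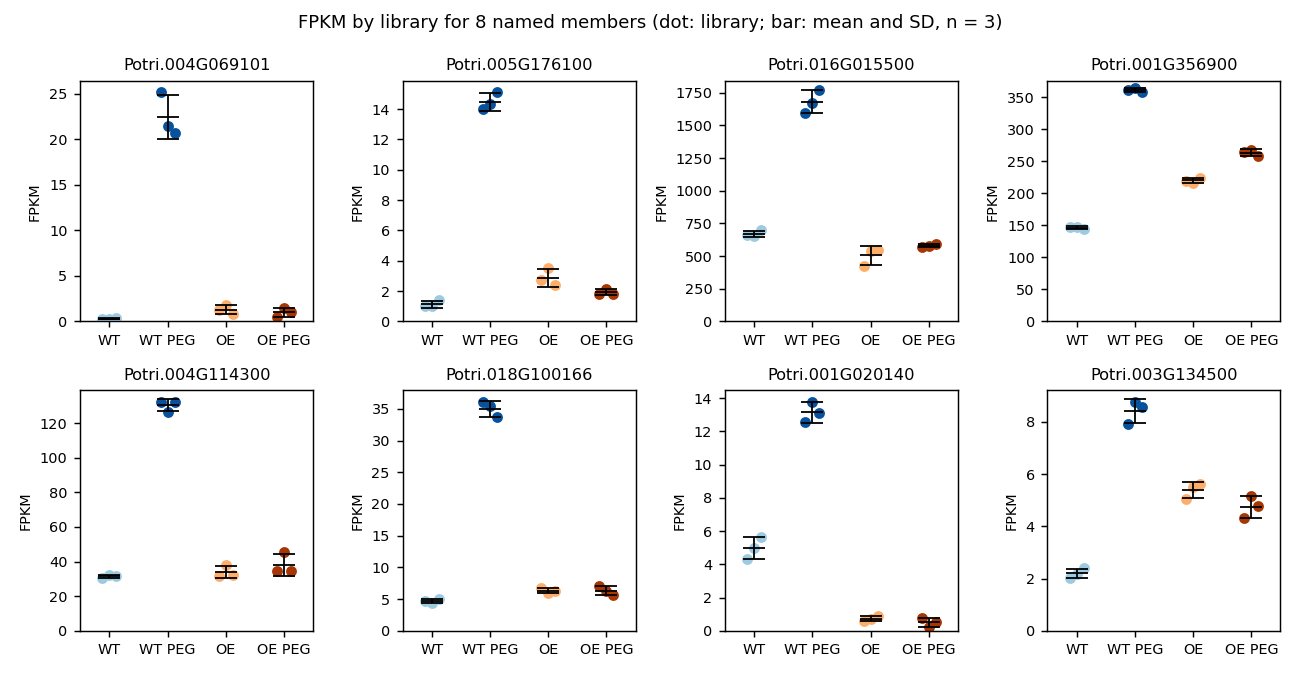
FPKM is plotted by group for 8 named members, each on its own linear axis from 0, with dots for libraries and bars for the mean and SD of 3 libraries. WT PEG is the highest group in each panel; OE lies above WT in 5 panels, below it for Potri.016G015500 and Potri.001G020140, and overlaps it for Potri.004G114300.

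The response to PEG in OE was small by the rule but not absent. The median change in OE was 0.20 on the log2(FPKM + 1) scale, against -0.02 over all tested genes, and it was above 0 in 129 of the 187 members. Of the 178 tested members, limma called 76 raised by PEG in OE, where 30.5% of tested genes were called raised. It called 33 lowered, where 34.1% of tested genes were called lowered, and made no call for 69. The rule used these same means and bounded the changes in both directions, so the calls are a description. The absence of induction in OE is thus a limit on size in the rule and not a value of 0 in the data. With quantile normalization 58 were called raised and 39 lowered, where 25.3% and 41.7% of tested genes were, and the median limma change of the tested members in OE was 0.08 in place of 0.19. As a ratio of mean FPKM the change in OE had a median of 1.17 and quartiles of 0.933 and 1.37, and it was over 1.5 in 18 members.

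Members just within the limits show what was called little change. Potri.006G267900 had the largest change in OE, 0.50, and stood at 12.3, 10.03 and 10.9 FPKM in OE and 15.3, 18.2 and 14.6 in OE PEG. Its WT libraries stood at 5.53, 5.77 and 5.97 FPKM and its WT PEG libraries at 15.7, 16.7 and 14.6, so OE PEG and WT PEG overlapped. The most negative change in OE, -0.48, was that of Potri.017G109800, a gene of 198 bp with 10, 7 and 11 recovered reads in OE and 13, 1 and 0 in OE PEG. Its OE PEG libraries overlapped the OE libraries. The limits cut through a continuous range: the genes nearest them changed in OE by 0.496 and -0.477 inside and by 0.501 and -0.507 outside. The nearest changes in WT were 1.201 inside and 1.199 outside, and the nearest highest group means were 2.01 FPKM inside and 1.98 outside.

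Low levels hide larger ratios. Potri.012G126800 stood at 0, 0 and 0.154 FPKM in WT, at 6.92, 6.41 and 6.34 in WT PEG, at 0, 0.0913 and 0.0351 in OE and at 0.247, 0.379 and 0.414 in OE PEG. The OE PEG libraries lay above the OE libraries, with 12, 18 and 24 recovered reads against 0, 4 and 2, yet the change in OE was 0.37 because of the pseudocount. The highest ratio of OE PEG to OE, 13.8, belonged to Potri.004G206700, at means of 0.398 ± 0.173 and 0.0289 ± 0.0501 FPKM (SD, n = 3), from 51 reads against 4. Both genes were singled out after their values were seen.

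**Figure D3:**
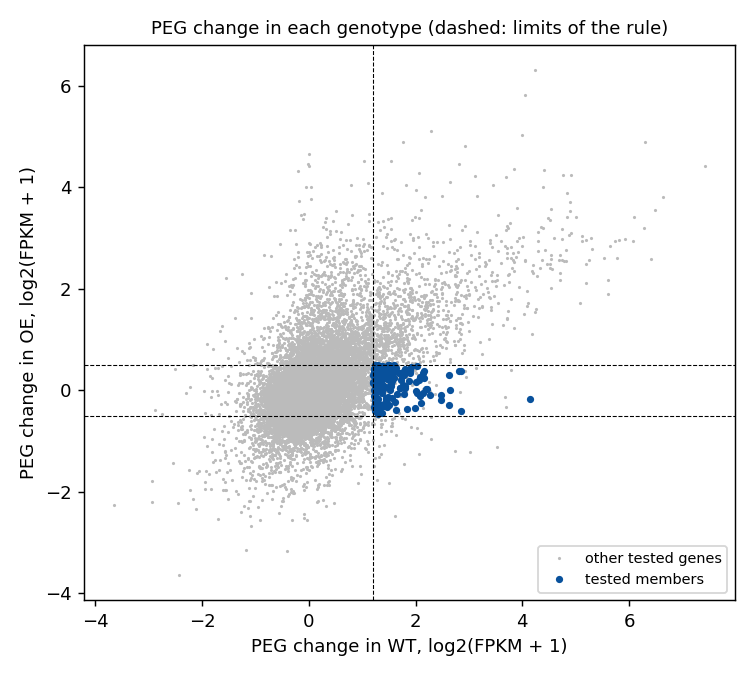
The PEG change in OE is plotted against the PEG change in WT for the tested genes, both as differences of log2 of the group mean FPKM plus 1, with the limits of the rule dashed. The 178 tested members fill a band of at most 0.50 around 0 in OE and reach 4.15 in WT; grey genes in the same band beyond the limit for WT did not meet another criterion.

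Most members stood higher in the overexpressor already on medium without PEG. OE exceeded WT in 172 of 187 members, by a median of 0.52 on the log2(FPKM + 1) scale, against 0.04 over all tested genes. The difference lay between 0.5 and 1 in 98 members, between 0 and 0.5 in 74 and below 0 in 15. limma called 141 of the 178 tested members higher in OE, where 31.7% of tested genes were called higher, and 4 lower, where 23.4% were. It made no call for 33. With quantile normalization the shares of all tested genes were 25.9% and 28.9%, and 132 members were called higher. This comparison and the response to PEG in WT share the WT libraries, and the rule capped it only from above. A further 66 genes met every other criterion and were left out because OE exceeded WT by 1 or more. The gene nearest the limit inside it had a difference of 0.9985 and the nearest outside 1.0091. Sets chosen by similar criteria also had higher median levels in OE than in WT. The medians were 0.843 FPKM in WT and 1.53 in OE for 543 genes raised by PEG in both genotypes. For 388 genes raised by PEG in OE and little changed in WT they were 1.75 and 2.91. The members' medians were 2.93 and 4.38, so a higher level in OE was not particular to them.

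Potri.003G134500 stood at the upper limit. Its FPKM was 2.04, 2.16 and 2.39 in WT, 5.05, 5.52 and 5.61 in OE, 4.32, 5.15 and 4.77 in OE PEG, and 7.90, 8.75 and 8.58 in WT PEG. OE and OE PEG overlapped and lay between WT and WT PEG.

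The 4 members called lower in OE without PEG were Potri.016G015500, Potri.001G020140, Potri.013G115200 and Potri.015G111756, the last 2 named after their values were seen. Potri.001G020140 had the largest difference, -1.78, at 4.33, 4.97 and 5.66 FPKM in WT against 0.621, 0.716 and 0.889 in OE. It reached 12.6, 13.8 and 13.1 FPKM in WT PEG and stayed at 0.745, 0.254 and 0.520 in OE PEG. Every OE library, on either medium, was below every WT library. Potri.015G111756 stood at 4.15, 4.34 and 4.86 FPKM in WT, 20.2, 25.2 and 22.2 in WT PEG, 3.39, 3.28 and 3.49 in OE and 2.26, 3.22 and 2.58 in OE PEG. For Potri.013G115200 the means were 3.24 ± 0.703 FPKM in WT, 9.01 ± 1.17 in WT PEG, 2.28 ± 0.281 in OE and 2.21 ± 0.245 in OE PEG (SD, n = 3).

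Placed on the rise of WT, with WT at 0 and WT PEG at 100% on the log2(FPKM + 1) scale, the median member stood at 33.7% in OE and at 42.2% in OE PEG. The quartiles were 18.6% and 47.5% in OE and 23.2% and 59.9% in OE PEG. At least 50% of the WT rise was reached by 41 members in OE and by 70 in OE PEG. In 128 of the 178 tested members all 6 OE libraries lay above the 3 WT libraries and below the 3 WT PEG libraries, an order held by 2.89% of tested genes. The criteria favoured that order without requiring it, since they set no lower limit for OE.

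**Figure D4:**
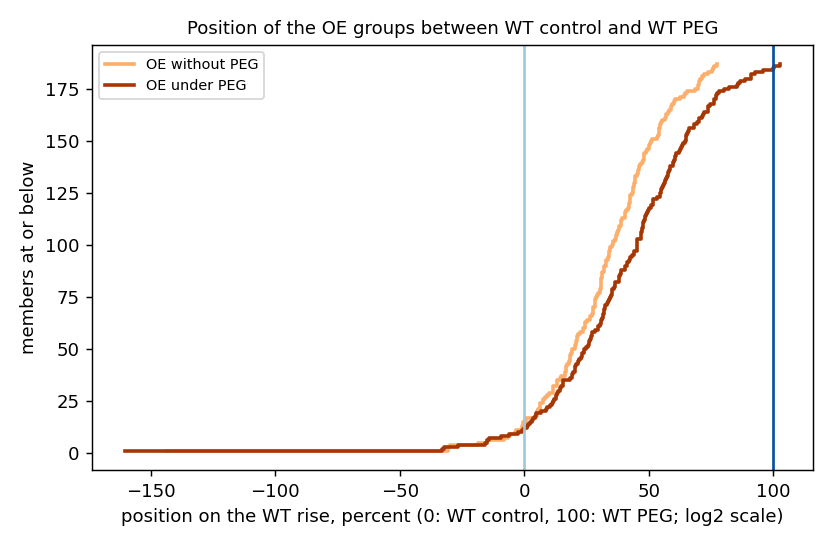
The number of members at or below each position on the WT rise is plotted for OE without and under PEG, with vertical lines at 0 (WT) and 100% (WT PEG). The OE medians are 33.7% and 42.2%, and the curve for OE reaches no further than 77.3%.

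Under PEG the members were lower in OE than in WT by a median of 0.89 on the log2(FPKM + 1) scale. The difference was -1 or below in 75 members, between -1 and -0.5 in 72 and above -0.5 in 40. limma called 163 of the 178 tested members lower in OE, where 32.2% of tested genes were called lower, and none higher, where 36.1% were. The difference was above 0 in Potri.006G267900, at 0.03, and in Potri.013G107050, named after its value was seen, at 0.00 to 2 decimals. The criteria together allow no difference above 0.3, so a count of 0 higher says little. The median ratio of WT PEG to OE PEG was 2.05, with quartiles of 1.56 and 3.01 and a highest value of 26.0.

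The calls on OE sorted the tested members into unequal classes, each given here with the share of tested genes that had the same pair of calls; nothing is read from the difference, since the rule used both contrasts. One class held 65 members, with 14.4% of tested genes, that stood above WT in OE without PEG and rose further with PEG in OE. Their median levels were 3.80 FPKM in WT, 13.7 in WT PEG, 6.44 in OE and 8.56 in OE PEG, which put OE PEG at a median of 62.8% of the WT rise. A class of 47, with 7.49% of tested genes, was higher in OE without a call for PEG in OE, at medians of 1.69, 8.41, 3.20 and 3.19 FPKM in the same order. A class of 29, with 9.73% of tested genes, was higher in OE and fell with PEG in OE, at medians of 4.96, 18.1, 8.40 and 6.90 FPKM. In these 29 the position on the WT rise was 47.7% in OE and 28.1% in OE PEG.

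A class of 20 members, with 20% of tested genes, had neither call in OE, which does not show that they were unchanged there. Their medians were 1.83 FPKM in WT, 7.75 in WT PEG, 2.29 in OE and 2.51 in OE PEG, with a position of 6.76% in OE and 7.70% in OE PEG. The most abundant of these 20, singled out after their values were seen, were Potri.004G114300 and Potri.019G057500. Potri.004G114300 stood at 30.7, 32.4 and 31.6 FPKM in WT, 132, 126 and 132 in WT PEG, 31.7, 37.9 and 32.1 in OE and 34.4, 45.6 and 34.6 in OE PEG. Potri.019G057500 stood at 8.81, 8.73 and 10.7 FPKM in WT, 48.6, 49.8 and 50.0 in WT PEG, 9.66, 10.8 and 10.6 in OE and 9.32, 9.86 and 9.87 in OE PEG. WT PEG stood alone in both, OE overlapped WT and OE PEG in both, and WT and OE PEG overlapped in Potri.019G057500 only. A further 10 members, with 10.7% of tested genes, were raised by PEG in OE from a level not called different from WT, and the remaining 7 were spread over 4 classes.

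The difference between the genotypes in their response, the interaction, was called below 0 by limma for 175 of the 178 tested members and above 0 for none, where 29% and 27.8% of tested genes were. The rule required a gap of more than 0.7 between the responses, so this count adds nothing to it. The 3 without a call were Potri.011G074201, Potri.013G138300 and Potri.013G162700, whose WT PEG libraries disagreed and which were named after their values were seen. Potri.013G162700 stood at 11.5, 1.97 and 2.75 FPKM in WT PEG against 1.93, 1.23 and 1.23 in WT. Potri.011G074201 stood at 57.3, 16.7 and 16.1 FPKM in WT PEG and 18.8, 5.78 and 10.9 in WT. Potri.013G138300 stood at 4.69, 1.45 and 0.484 FPKM in WT PEG and 0.332, 0.242 and 0.326 in WT. In each, replicate 1 of WT PEG was the high library, and without it the limma log2 changes in WT were 0.45, 0.57 and 0.55 and were no longer called. The call in WT was also lost for Potri.011G074201 without WT replicate 2 (0.76) or 3 (1.17) and for Potri.013G162700 without WT replicate 2 or 3 (1.02 each). Wide spread in WT PEG was not confined to genes without an interaction call. Potri.012G028432, named after its values were seen, stood at 3.21 ± 2.45 FPKM in WT PEG (SD, n = 3). Its mean in WT was 0.631 ± 1.09 FPKM, and both its rise in WT and its interaction were called.

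Gene length, recovered from the FPKM steps, was not used to choose the members. Their median length was 1609 bp, with quartiles of 1090.5 and 2426 bp, against 1825 bp for tested genes. The 543 genes that met the same criteria except that PEG raised them by 0.5 or more in OE had a median of 1325 bp. The 388 genes chosen by the mirrored rule, raised by PEG in OE and little changed in WT, had a median of 1334 bp. Genes of 3000 bp or more made up 15.5% of the members, 4.79% of the genes raised in both, 3.61% of the mirrored set and 21.1% of tested genes. The sets were defined by the response in OE, which moved with length: across 22640 genes, which are not independent, Spearman's rho with length was -0.34 for the change in OE and 0.04 for the change in WT. The part of this trend in the difference between the sets was not tested. Among the 187 members rho with length was -0.10 for the change in OE and -0.15 for the change in WT.

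**Figure D5:**
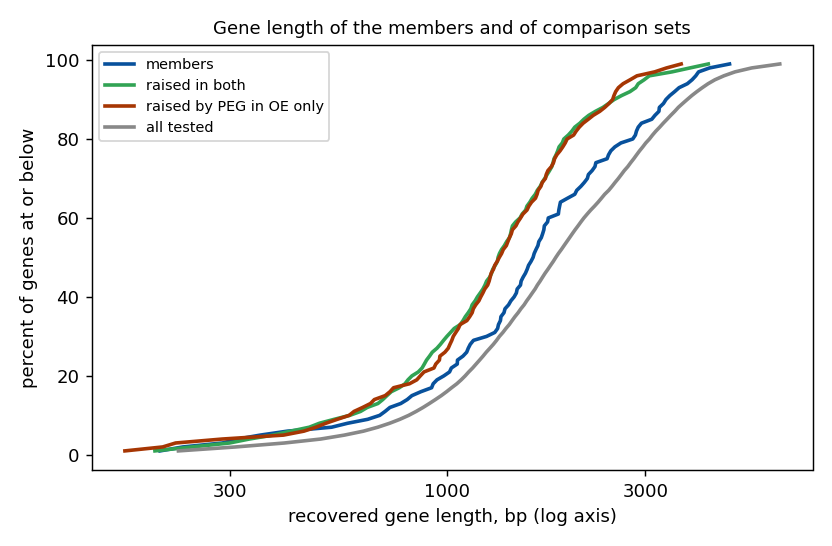
The percentage of genes at or below each recovered length is plotted on a log axis for the 187 members, the 543 genes raised in both genotypes, the 388 genes of the mirrored rule (raised by PEG in OE only, by its limits) and the 22640 tested genes. From the 7th percentile upwards the members' curve runs between those of the other PEG-raised sets and that of all tested genes; among the shortest genes the curves of the PEG-raised sets cross.

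In the naming of Populus trichocarpa genes the digits before G give the chromosome and those after it the order along it. By this, 185 members were placed on all 19 chromosomes, and 2 carried unplaced identifiers. The share of a chromosome's listed genes ran from 0.272% on chromosome 11 to 0.885% on chromosome 16, against 0.539% over the table. Members held 8 of the 370 positions next to a placed member in the list of identifiers, or 2.16%. They formed 3 runs, although genes not listed in the table may lie between neighbours. The 224 tested neighbours that were not members had a median change with PEG of 0.04 in WT and 0.00 in OE on the log2(FPKM + 1) scale, and 37.1% of them were called raised in WT, against 29.9% of tested genes.

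The run on chromosome 18 held Potri.018G100166, Potri.018G100232 and Potri.018G100300, with recovered lengths of 1090, 1127 and 778 bp. Potri.018G100166 stood at 4.77, 4.46 and 5.03 FPKM in WT, 36.1, 35.4 and 33.7 in WT PEG, 6.75, 5.96 and 6.29 in OE and 7.02, 6.36 and 5.64 in OE PEG. Potri.018G100232 stood at 2.62, 1.73 and 1.98 FPKM in WT, 17.3, 20.8 and 16.3 in WT PEG, 3.51, 4.21 and 3.53 in OE and 2.94, 2.71 and 3.06 in OE PEG. Potri.018G100300 stood lower throughout, at 0.853, 0.603 and 0.504 FPKM in WT and 3.02, 2.67 and 3.21 in WT PEG. In all 3 genes the WT PEG libraries exceeded the other 9. Their log2(FPKM + 1) changes were 2.65, 2.62 and 1.26 in WT and 0.00, -0.28 and -0.05 in OE.

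On chromosome 15 the pair Potri.015G063400 and Potri.015G063500, of 3235 and 3165 bp, kept nearly the same proportions in all groups. Potri.015G063500 stood at 32.0, 32.2 and 33.9 FPKM in WT, 76.0, 78.4 and 78.6 in WT PEG, 63.5, 64.8 and 60.5 in OE and 49.4, 50.4 and 49.8 in OE PEG. Potri.015G063400 stood at 27.0, 28.1 and 27.5 FPKM in WT, 65.7, 67.2 and 66.7 in WT PEG, 53.8, 54.1 and 54.0 in OE and 44.4, 44.7 and 45.0 in OE PEG. The 4 groups did not overlap in either gene, and both were called raised by PEG in WT and lowered in OE. On chromosome 16, Potri.016G106300 changed by 1.70 in WT and 0.34 in OE, and Potri.016G106100 by 1.43 and 0.24. Neighbouring genes can be near-identical copies, among which the authors' counting could have split or dropped reads, and no sequence was used here to tell.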

How the data were processed

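The authors deposited FPKM per gene, printed to 4 decimals, for 12 libraries with a column for each sample. The submitters' processing notes list, without role or order, HTSeq 0.6.0, Bowtie2 2.2.3 and HISAT2 2.1.0. The sources used here do not give the build, the annotation, strand or multi-mapping settings.

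Groups came from the titles. The rule was applied to group means. The test was limma 3.58.1 (R 4.3.3) on log2(FPKM + 1), with a variance trend, all 4 groups in 1 fit (8 residual degrees of freedom), no block, and Benjamini-Hochberg adjustment over the 22640 genes with a mean of at least 1 FPKM. Whole reads, totals and gene lengths were recovered from the steps between FPKM values. They returned 100% of the deposited values of these 22640 genes within 0.0001 FPKM or 0.001%. Lengths were accepted only where each value came out as a whole number of reads within a tolerance, so this return followed from the method. Whether such a read is a mate or a pair is unknown. Recovery and test were also run on data simulated from the recovered lengths and totals, with the same spread between libraries set for all genes. Real genes need not share that spread, so no support is drawn from the simulation.

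No 2 replicates agreed within sampling noise, with chi-square per degree of freedom of 2.82 to 4.53. The members, lists and tests were chosen with earlier results of these data known. The 38 lists by gene product could not be applied without names. Named genes are the 2 leading members by change or level in WT, by difference between genotypes, members beside each other, and those nearest a limit. Others are marked as chosen after their values were seen. Alternatives covered pseudocount, filter, scaling, replicate block, a read-based fit, limits of the rule and each library left out.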

Additional observations from a re-analysis of the deposited data

Results flagged for a closer look

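The effect of PEG differed between genotypes, by limma's test of the interaction at an adjusted p under 0.05 over all tested genes, for 175 of the 178 tested members, each with a smaller change in OE than in WT. The rule chose the members for this gap, so the number describes the rule. Among all tested genes the interaction was called below 0 for 29% and above 0 for 27.8%. No group held enough libraries for a statistical check of single outlying samples, but each library was left out in turn.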

How the results depend on the processing

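Membership depended on the settings. The calls were counted on the 187 members of the main rule, so their steadiness follows in part from the rule and is not comparable. The rule gave 303 genes with a limit of 1 for the rise in WT and 112 with a limit of 0.3 for the change in OE. It gave 198 with a pseudocount of 0.1, of which 122 were among the 187, and 165 with quantile normalization, of which 132 were. A pseudocount of 0.5 gave 210, of which 154 were. In 82 members a log2 change or difference lay within 0.1 of its limit, with the limit of 2 FPKM on the group mean not counted. Of 2 settings chosen after seeing the data, an interaction of at least 1 in place of the limit on OE gave 260. Of these, 150 were among the 187. Recovered reads with 3 reads added gave 199, of which 122 were among the 187. With 1 library left out the rule gave 180 to 194 genes, of which at least 172 were among the 187.

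Calls were kept to within 1.5 times under the other pseudocounts, scalings, voom on recovered reads and no filter. A minimum mean of 5 FPKM tested only 102 members, and so gave 101 interactions below 0, 49 raised and 25 lowered by PEG in OE, 86 higher and 2 lower in OE without PEG, and 96 lower in OE under PEG. The shares of all genes tested there were 31.5%, 31.5%, 37.7%, 34.6%, 27.5% and 34.2%, in the same order. Leaving out 1 library gave, in the same order, 173 to 176, 63 to 77, 26 to 32, 137 to 143, 3 to 4 and 159 to 165. Of all tested genes, 27.5% to 28.5%, 28.2% to 30.7%, 31.3% to 34.1%, 28.6% to 31.8%, 21.1% to 23.6% and 30.2% to 32.2% were then called.

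Same-numbered libraries of different groups deviated together little, with correlations of -0.07 to 0.10 over 18 pairs, so the numbers were not taken as pairs. With the replicate number as a block the counts were 176, 76, 31, 142, 4 and 165, and voom on recovered reads gave 174, 75, 29, 138, 3 and 166. The shares of all tested genes were 28.6%, 30.5%, 33.8%, 31.4%, 23.2% and 32% with the block. They were 30.8%, 31.2%, 35%, 32.4%, 24.4% and 32.8% with voom. The change in WT of 26 tested named members was called in 175 of 182 repeats with a WT library left out or a pseudocount of 0.1, the other 7 falling on the 3 genes whose WT PEG libraries disagreed. The rule chose the members by this same change, so the number is a description and no support for it. Depth limits the members near 0 in WT, such as Potri.004G069101 with 7 reads there.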

Other observations

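The 3 tested members without an interaction call were also highest in replicate 1 of OE PEG, a pattern noticed after their values were seen. Potri.011G074201 stood at 21.2, 8.59 and 8.05 FPKM in OE PEG, Potri.013G162700 at 3.24, 1.61 and 1.73, and Potri.013G138300 at 2.26, 1.16 and 0.923. Potri.011G074201 and Potri.013G162700 were highest in replicate 1 of WT and of OE as well, at 10.5, 9.33 and 6.54 and at 2.28, 1.82 and 1.70 FPKM in OE.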
